A study of Mus musculus with 4 samples.

Results

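Carboxylesterases are serine hydrolases that cut esters, amides and thioesters. In hepatocytes most of them sit in the lumen of the endoplasmic reticulum, where they hydrolyse drugs and other foreign esters and also act on triacylglycerols and cholesteryl esters. The mouse has many more of these genes than the human, in tandem runs that have been placed in numbered subfamilies: the Ces1 enzymes include the liver triacylglycerol hydrolases, the Ces2 enzymes prefer esters with a bulky alcohol part, and the Ces3 enzymes are a smaller group. The genes described here were Ces1d, Ces1e, Ces1f, Ces1g, Ces2a, Ces2c, Ces2e, Ces2g, Ces3a and Ces3b. A gene was taken where the platform annotation named it, and no other gene, for a row of the array. This held for 9 of the 10, each with 1 row, among 19938 genes with such a row; Ces2c was not analysed here.

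RNA of whole livers from mice 8 weeks old, labelled male, was measured on Affymetrix whole-transcript arrays. The genotypes were GHR-/-MDR2-/- (both genes knocked out), GHR-/- (growth hormone receptor knocked out), MDR2-/- (MDR2 knocked out) and WT (wild type), and the study concerns growth hormone resistance in cholestatic fibrosis. GHR is the receptor through which growth hormone acts on hepatocytes. MDR2 is the product of Abcb4, a phospholipid pump of the bile canaliculus whose loss causes cholestasis, duct injury and fibrosis. In each genotype 3 livers were pooled and hybridised to 1 array, so there was no replicate of any genotype, the spread between mice is not known and the small number of arrays sets the precision. The knockouts are labelled with no tissue or cell restriction, and the sources used here give neither the allele design nor the strain background.

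The pools were checked against their labels. Ghr had an intensity of 935 in the GHR-/-MDR2-/- and 1395 in the GHR-/- pool, against 4485 in the MDR2-/- and 4944 in the WT pool. Abcb4 had 689 in the GHR-/-MDR2-/- and 663 in the MDR2-/- pool, against 1346 in the GHR-/- and 1120 in the WT pool. The sources used here do not say which exons these probe sets cover, so neither gene is a full check. Xist, which is transcribed from the silenced X chromosome of female cells, had 1400 in the GHR-/- pool, against 17 in the GHR-/-MDR2-/-, 18 in the MDR2-/- and 16 in the WT pool. Among genes of the Y chromosome, Kdm5d, Uty and Eif2s3y lay between 212 and 951 in every pool. The GHR-/- pool therefore goes against its label of male mice only. For the carboxylesterases and the cell type markers, differences between pools that rest on it are given below beside ones that do not. GHR loss without that pool can be read only as GHR-/-MDR2-/- against MDR2-/-, and MDR2 loss without it only as MDR2-/- against WT. Hepatocyte markers had a summed intensity of 165663, 171638, 171404 and 177537 in the GHR-/-MDR2-/-, GHR-/-, MDR2-/- and WT pools, and none of the 19 measured was listed at 0. In whole liver, fewer hepatocytes and less RNA per hepatocyte cannot be told apart.

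RefSeq places the family on mouse chromosome 8 in 2 runs. The first holds Ces1a to Ces1h and Ces5a, and the second holds the Ces2 genes, Ces3a, Ces3b and Ces4a, with 68 other protein-coding genes between the runs and none within them. RefSeq promoter windows (GRCm38.p6, 250 bases before to 50 after the start site) were matched for 6 of the 9 measured genes. Ces1d, Ces1f and Ces3a had no window, so no motif was searched in them. Those of Ces3b, Ces1e, Ces1g and Ces2a are printed because Ces3b had the widest range over the pools, Ces1e and Ces1g lie in the same run yet differed in opposite directions with loss of MDR2 alone, and Ces2a was the most reduced Ces2 gene. The windows are chr8:105083505-105083804 on the plus strand for Ces3b, chr8:93229570-93229869 on the minus strand for Ces1e, chr8:93337160-93337459 on the minus strand for Ces1g and chr8:104733753-104734052 on the plus strand for Ces2a. Each is written 5′ to 3′ on the strand of its gene, and capitals mark the motifs named after them.
Ces3b: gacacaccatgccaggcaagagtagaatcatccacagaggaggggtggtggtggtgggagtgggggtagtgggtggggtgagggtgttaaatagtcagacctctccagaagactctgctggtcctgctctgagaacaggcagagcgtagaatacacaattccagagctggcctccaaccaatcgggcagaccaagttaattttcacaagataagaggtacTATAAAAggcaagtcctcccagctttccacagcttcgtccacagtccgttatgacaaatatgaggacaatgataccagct
Ces1e: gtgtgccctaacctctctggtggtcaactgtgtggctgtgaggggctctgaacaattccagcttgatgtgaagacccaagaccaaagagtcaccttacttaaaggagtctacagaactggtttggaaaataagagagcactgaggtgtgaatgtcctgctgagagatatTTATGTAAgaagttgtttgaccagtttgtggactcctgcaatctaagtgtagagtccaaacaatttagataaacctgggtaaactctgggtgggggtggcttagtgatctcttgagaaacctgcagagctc
Ces1g: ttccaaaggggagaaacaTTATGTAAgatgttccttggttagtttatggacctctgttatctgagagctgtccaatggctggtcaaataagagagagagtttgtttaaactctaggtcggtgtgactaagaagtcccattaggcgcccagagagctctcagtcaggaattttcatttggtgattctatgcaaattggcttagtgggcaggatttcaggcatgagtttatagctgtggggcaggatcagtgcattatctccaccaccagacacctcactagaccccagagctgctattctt
Ces2a: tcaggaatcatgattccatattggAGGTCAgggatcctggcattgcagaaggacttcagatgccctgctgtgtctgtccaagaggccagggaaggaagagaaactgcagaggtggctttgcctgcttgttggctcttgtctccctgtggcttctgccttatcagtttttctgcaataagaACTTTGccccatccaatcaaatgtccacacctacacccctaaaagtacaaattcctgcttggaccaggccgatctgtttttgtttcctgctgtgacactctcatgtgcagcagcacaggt

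Motifs of 5 kinds were searched on both strands, and some were picked after the sequences had been read. The letters TTATGTAA, a site type bound by C/EBP and PAR bZIP factors, stood in the windows of Ces1e, at 81 bases before the start site, and Ces1g, at 232 bases before it, and also in those of the further family genes Ces1a, Ces1b and Ces1c. They are present in 0.938% of the 32851 mouse promoter windows. The 5 genes lie in the first run, whose members are alike in sequence, so their matches may not be separate. With some motifs picked after reading, this share is a description and not a test. The letters ACTTTG, which occur in binding sites of the hepatocyte factor HNF4A, stood in the windows of Ces2a, Ces2e and Ces2g and of the further gene Ces2f, against 14.4% of windows, at 70 bases before the start site in Ces2a. These Ces2 genes lie in the second run and are alike in sequence, so their matches may not be separate either. AGGTCA, the repeat unit of many nuclear receptor sites, stood in the window of Ces2a alone among the 6 and in those of the further genes Ces2h and Ces4a, against 16.3% of windows. The TATA box letters TATAAAA stood in that of Ces3b, at 30 bases before the start site, and of the further gene Ces1h, against 5.48% of windows. The STAT motif TTCNNNGAA is palindromic and bound by factors that growth hormone activates. It was in none of the 6 windows, which do not include those of Ces1d, Ces1f and Ces3a. It was in those of the further genes Ces1h and Ces5a (2 of 15 family windows) and in 8.3% of all windows. A match shows that the letters are present, and the lack of one says only that they are not in this window. Of these motifs, AGGTCA and ACTTTG did not overlap in Ces2a.

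Intensities are linear array signals made with RMA, and all differences below are log2 differences between single arrays with their fold size. A difference was counted where it reached 1.5-fold and the higher of its arrays was at or above 100, the median intensity of all rows with 1 gene symbol. All 9 genes passed that level in each comparison. Probe sets of different genes are not compared in level. Members of tandem runs are alike in sequence, and how much signal their probe sets share was not tested.

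**Figure D1:**
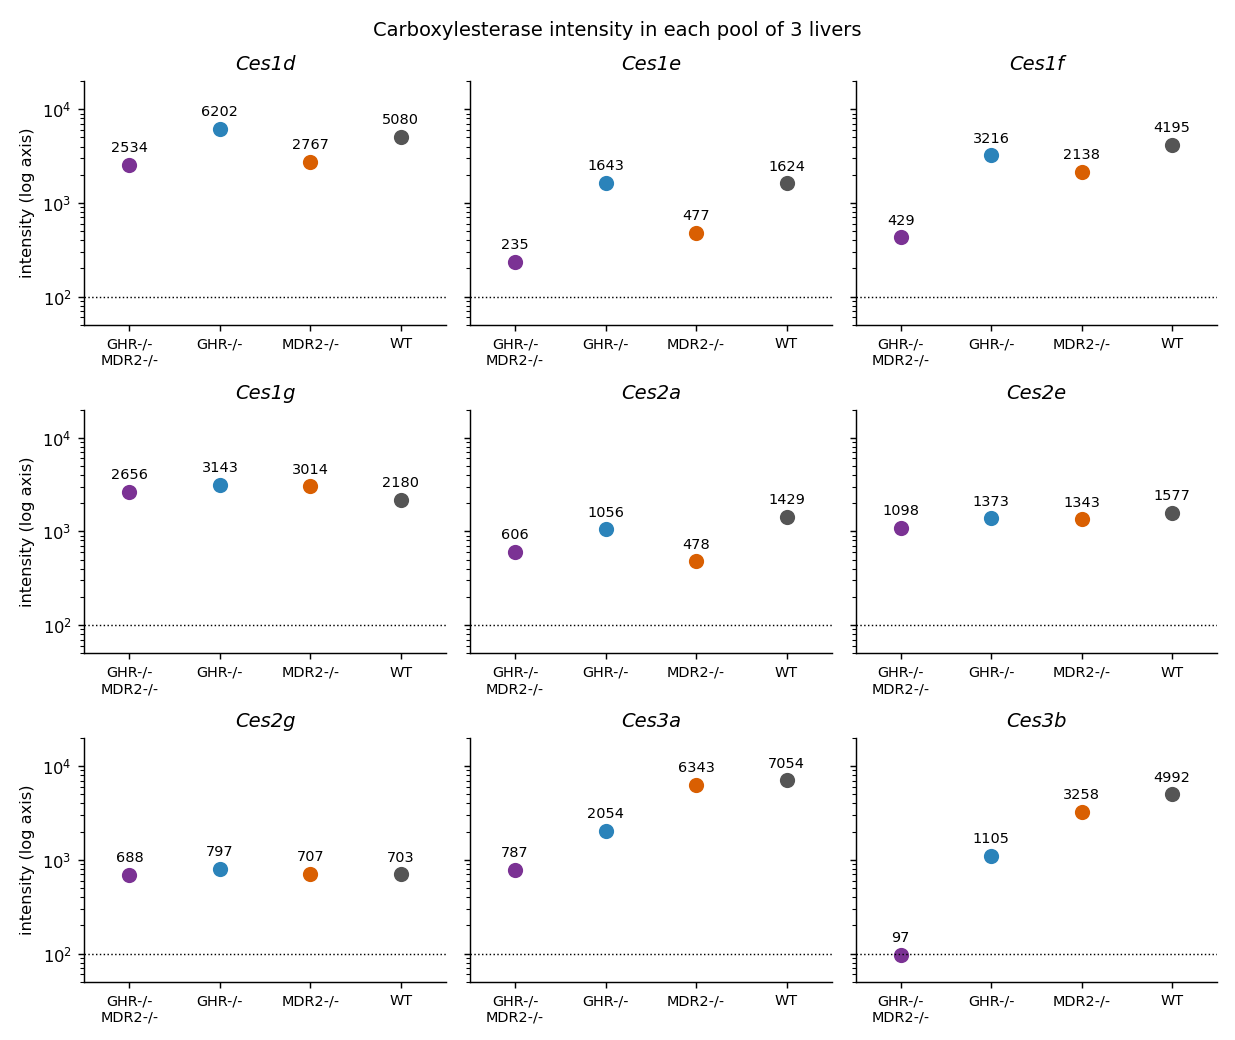
Intensity of the 9 measured carboxylesterases (one panel per gene, log axis) in the GHR-/-MDR2-/-, GHR-/-, MDR2-/- and WT pools, 1 point per pool of 3 livers and no error bars because no genotype was replicated; the dotted line is the level of 100. Ces3b spans 97 to 4992 and Ces3a 787 to 7054, with both GHR-/- genotypes below both others, while Ces2g stays between 688 and 797.

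Ces3a and Ces3b were the only genes of the 9 that were at least 1.5-fold lower with GHR loss in both backgrounds. RefSeq lists the older esterase name Es31 for both, and they lie side by side. Ces3a had an intensity of 787 in the GHR-/-MDR2-/- pool and 2054 in the GHR-/- pool, against 6343 in the MDR2-/- and 7054 in the WT pool. Ces3b had 97, 1105, 3258 and 4992 in the same order of pools. For both genes the pools without GHR lay below the pools with it, and the GHR-/-MDR2-/- pool was the lowest.

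Ces3a was 8.06-fold lower in the GHR-/-MDR2-/- than in the MDR2-/- pool (log2 difference -3.01) and 3.43-fold lower in the GHR-/- than in the WT pool (-1.78). Ces3b was 33.6-fold lower in the GHR-/-MDR2-/- than in the MDR2-/- pool (-5.07) and 4.52-fold lower in the GHR-/- than in the WT pool (-2.18). Of the 2 comparisons for each gene, the larger difference was thus the one that does not use the pool with Xist at 1400. The Ces3b value of 97 lies under the level of 100 and has no detection call here, so folds against it are not exact. With loss of MDR2 alone Ces3a was 1.11-fold lower (-0.15) and Ces3b 1.53-fold lower (-0.62) than in WT liver. In the absence of GHR, MDR2 loss went with a further difference, 2.61-fold lower for Ces3a and 11.4-fold lower for Ces3b in the GHR-/-MDR2-/- than in the GHR-/- pool.

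Many male-biased liver genes depend on the pulsed growth hormone of male mice. Of 14 measured male-biased liver genes (16 listed), 11 were at least 1.5-fold lower and none higher in the GHR-/-MDR2-/- against the MDR2-/- pool. Their median was -2.84, and 3.88% of all genes were lower. In the GHR-/- against the WT pool 13 were lower and none higher, with a median of -2.16, against 2.48% of all genes lower. Of 10 female-biased genes that passed the level in the GHR-/-MDR2-/- against the MDR2-/- pool, 9 were higher and none lower. In that comparison 7.13% of all genes were higher. In the additive limma model described below, 8 of the 14 male-biased genes were called lower with GHR loss, against 0.316% of all genes. In it 5 of 14 tested female-biased genes were called higher, against 0.204%. With no level filter no gene was called for GHR loss, so these calls were lost there. The gene lists were chosen with earlier results of these data known. The GHR-/- pool enters that model, and the part of its Xist level in these values was not tested.

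Ces1e and Ces1d, neighbours in the first run, were lower in both pools that lacked MDR2 and not in the GHR-/- pool. Ces1e encodes egasyn, which holds beta-glucuronidase in the endoplasmic reticulum. Its intensity was 235 in the GHR-/-MDR2-/- and 477 in the MDR2-/- pool, against 1643 in the GHR-/- and 1624 in the WT pool. It was 3.40-fold lower in the MDR2-/- than in the WT pool (log2 difference -1.77) and 6.99-fold lower in the GHR-/-MDR2-/- than in the GHR-/- pool (-2.81). With MDR2 present, GHR loss left it within 1.01-fold of WT (0.02, below 0 with cyclic loess at -0.03 and median centring at -0.10), and with MDR2 absent GHR loss went with a 2.03-fold lower level (-1.02), which does not use the GHR-/- pool. Gusb, the gene of beta-glucuronidase, had 422, 258, 305 and 248 in the GHR-/-MDR2-/-, GHR-/-, MDR2-/- and WT pools, highest where Ces1e was lowest.

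Ces1d encodes triacylglycerol hydrolase (TGH), which draws on stored hepatic triacylglycerol for lipoprotein assembly. Its intensity was 2534 in the GHR-/-MDR2-/- and 2767 in the MDR2-/- pool, against 6202 in the GHR-/- and 5080 in the WT pool. It was 1.84-fold lower in the MDR2-/- than in the WT pool (-0.88) and 2.45-fold lower in the GHR-/-MDR2-/- than in the GHR-/- pool (-1.29). The pools without MDR2 lay below both pools with it, and the 2 pools without MDR2 differed by 1.09-fold.

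Ces1f, the second liver triacylglycerol hydrolase (TGH-2), was lower with either loss and lowest with both. Its intensity was 429 in the GHR-/-MDR2-/-, 3216 in the GHR-/-, 2138 in the MDR2-/- and 4195 in the WT pool. It was 9.78-fold lower in the GHR-/-MDR2-/- than in the WT pool (-3.29), while it was 1.30-fold lower in the GHR-/- (-0.38) and 1.96-fold lower in the MDR2-/- pool (-0.97). With MDR2 absent, GHR loss went with a 4.98-fold lower level (-2.32), which does not use the GHR-/- pool.

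Ces1g did not share these lower levels, although it lies next to Ces1f. In mice, loss of the Ces1g enzyme raises hepatic lipid synthesis. Its intensity was 2656 in the GHR-/-MDR2-/-, 3143 in the GHR-/-, 3014 in the MDR2-/- and 2180 in the WT pool. All 3 knockout pools lay above the WT pool, by 1.22-fold (0.28), 1.44-fold (0.53) and 1.38-fold (0.47) in that order of genotypes, each under 1.5-fold (with hepatocyte marker centring the GHR-/- difference was 0.62, past it).

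**Figure D2:**
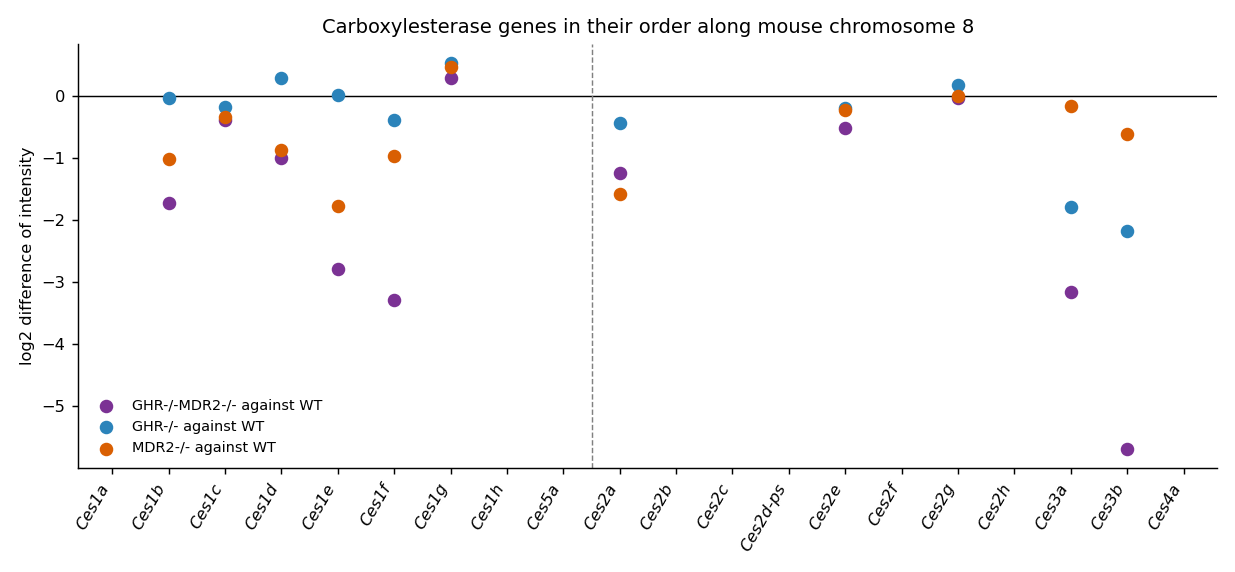
Log2 difference of intensity of the GHR-/-MDR2-/-, GHR-/- and MDR2-/- pools against the WT pool (y axis) for carboxylesterase genes in their order along chromosome 8 (x axis, not to scale; the dashed line parts the 2 runs). Genes with no point had no row of their own or stayed under an intensity of 100 in all pools. Ces1g lies above 0 beside Ces1f at -3.29 in the GHR-/-MDR2-/- pool, and Ces3a and Ces3b lie at -3.16 and -5.69.

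Among the Ces2 genes, Ces2a was lower in the pools without MDR2, and Ces2e and Ces2g stayed within 1.5-fold throughout. Ces2 enzymes hydrolyse drug esters, and mouse Ces2a also cuts di- and triacylglycerols. Ces2a had an intensity of 606 in the GHR-/-MDR2-/- and 478 in the MDR2-/- pool, against 1056 in the GHR-/- and 1429 in the WT pool. It was 2.99-fold lower in the MDR2-/- than in the WT pool (-1.58) and 1.74-fold lower in the GHR-/-MDR2-/- than in the GHR-/- pool (-0.80). It was the one gene of the 9 whose level with MDR2 absent was higher in the pool that also lacked GHR, by 1.27-fold (0.34), except that Ces2g was also higher (0.05) with hepatocyte marker centring.

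Ces2e had 1098, 1373, 1343 and 1577 in the GHR-/-MDR2-/-, GHR-/-, MDR2-/- and WT pools. Its largest difference was 1.44-fold, between the GHR-/-MDR2-/- and WT pools (-0.52). Ces2g had 688, 797, 707 and 703 in the same order, a range of 1.16-fold over all pools. The 3 Ces2 windows with ACTTTG thus belong to a gene that was lower without MDR2 and to others that were not past the threshold.

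Counted over the 9 genes, every difference past 1.5-fold was towards lower levels, except for Ces1g in the GHR-/- pool under hepatocyte marker centring. Loss of MDR2 alone (MDR2-/- against WT) went with 5 of 9 genes lower and none higher, against 3.57% of 10258 genes lower and 6.05% higher. MDR2 loss without GHR (GHR-/-MDR2-/- against GHR-/-) went with 6 of 9 lower, against 9.89% of 10514 genes lower and 9.91% higher. GHR loss alone (GHR-/- against WT) went with 2 of 9 lower, against 2.48% of 10052 genes lower and 4.22% higher. GHR loss without MDR2 (GHR-/-MDR2-/- against MDR2-/-) went with 4 of 9 lower, against 3.88% of 10524 genes lower and 7.13% higher. In the GHR-/-MDR2-/- against the WT pool 6 of 9 were lower, against 7.56% of 10487 genes lower and 13.7% higher. The median log2 difference of the 9 genes was -0.62, -1.29, -0.20, -0.29 and -1.24 in these comparisons as listed, beside -0.04, -0.06, 0.10, 0.06 and 0.01 over all genes counted. These comparisons share arrays, so they are not separate evidence of each other. The 9 genes were chosen with earlier results of these data known, and their probe sets may share signal. The shares of all genes set beside their counts, here and below, are thus a description and not a test. At 2-fold in place of 1.5-fold the count for MDR2 loss alone was 2, Ces1e and Ces2a, against 0.76% of genes lower.

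**Figure D3:**
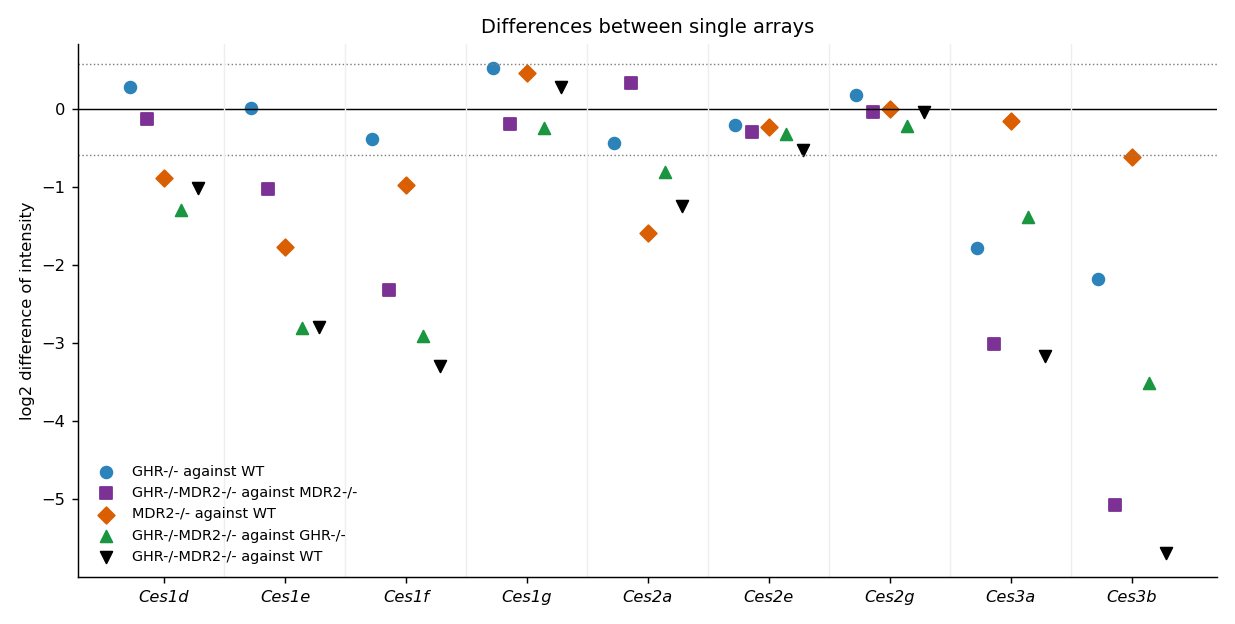
Log2 differences of intensity (y axis) for the 9 carboxylesterases (x axis) in the 5 comparisons between single arrays, with dotted lines at 1.5-fold in each direction. No point lies above the upper line, and the points of Ces2e and Ces2g all lie between the lines.

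The only test the design allows is an additive limma model over all 4 arrays, which compares the 2 arrays without a gene with the 2 arrays with it, allows for loss of the other gene and adjusts over 10764 genes by Benjamini-Hochberg. It assumes the same effect in both backgrounds and leaves 1 residual degree of freedom per gene. For MDR2 loss 2 of 9 genes passed at 0.05, both lower, against 0.762% of all genes called lower and 2.99% called higher. Ces1e fell by 2.29 on the log2 scale (SE 0.26, limma adjusted p = 0.0273, 0.0200 to 0.327 over the alternatives) and was lower in 2 of 2 comparisons. Ces1d fell by 1.08 (SE 0.16, limma adjusted p = 0.0382, 0.0280 to 0.327 over the alternatives) and was lower in 2 of 2 comparisons. Both calls were lost with no level filter, with the stricter level filter and with cyclic loess, and Ces1d also with hepatocyte marker centring. Ces2a had an additive difference of -1.19 (SE 0.22, limma adjusted p = 0.0528, 0.0432 to 0.327 over the alternatives) and Ces1f one of -1.94 (SE 0.44, limma adjusted p = 0.0797, 0.0670 to 0.360).

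For GHR loss none of the 9 genes passed limma's adjusted threshold, against 0.316% of all genes called lower and 0.204% called higher, and 3 had an unadjusted p under 0.05. Ces3a had an additive difference of -2.40 (SE 0.30, limma adjusted p = 0.0552, 0.0411 to 0.518 over the alternatives) and passed under 1 of the 8 alternatives, the mean of all rows of each gene. Ces3b had -3.62 (SE 0.64, limma adjusted p = 0.147, 0.113 to 0.518 over the alternatives) and Ces1f -1.35 (SE 0.44, limma adjusted p = 0.321, 0.266 to 0.553). The wide errors of Ces3b and Ces1f come from the residual of this model, which is the departure from additivity described next. The fit cannot be made without the GHR-/- array, since no residual degree of freedom would remain.

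Departure from additivity was the log2 difference with GHR loss in MDR2-/- livers minus the one in MDR2-intact livers. It is a value of 4 single arrays with no test. It was past 1.5-fold below 0 in 5 of 9 genes (6.72% of 10764 genes) and above 0 in 1 (5.28%), and its robust SD over those genes was 0.33. Ces3b had -2.89, Ces1f -1.93, Ces3a -1.23, Ces1e -1.04 and Ces1g -0.71, and Ces2a was the gene above 0, at 0.78. Ces1d had -0.42, Ces2g -0.22 and Ces2e -0.09. In Ces3b, Ces1f, Ces3a and Ces1e the pool with both losses was thus lower than the sum of the log2 differences of the single losses. Each of these values uses the GHR-/- pool.

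**Figure D4:**
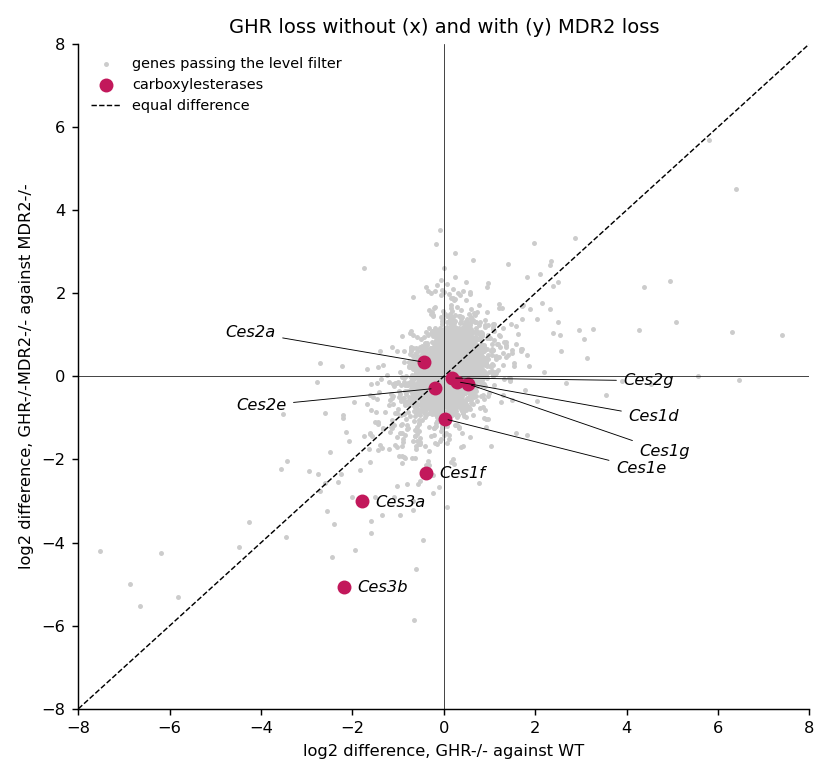
Log2 difference with GHR loss in MDR2-intact livers (x axis, GHR-/- against WT) and in MDR2-/- livers (y axis, GHR-/-MDR2-/- against MDR2-/-), with grey points for 10764 genes passing the level filter and the dashed line where both are equal. Ces3b (-2.18, -5.07), Ces1f (-0.38, -2.32), Ces3a (-1.78, -3.01) and Ces1e (0.02, -1.02) lie below the line.

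Further family genes were taken from a list of 10, of which 7 had a row. Ces1b, in the same run as Ces1e, had 814 in the GHR-/-MDR2-/- and 1326 in the MDR2-/- pool, against 2613 in the GHR-/- and 2681 in the WT pool. Like Ces1d and Ces1e it fell with MDR2 loss, by 1.35 on the log2 scale (SE 0.20, limma adjusted p = 0.0373). With no level filter no gene was called for MDR2 loss, so this call was lost. The departure of Ces1b from additivity was -0.67. Ces1c, a secreted esterase of mouse plasma, had 5990, 6952, 6180 and 7844 in the GHR-/-MDR2-/-, GHR-/-, MDR2-/- and WT pools, a range of 1.31-fold. Ces1a, Ces2b, Ces2f, Ces4a and Ces5a stayed between 37 and 80 in all pools, under the level of 100.

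Of 23 measured esterase, lipase and lipoprotein genes outside the family (24 listed), 22 were tested by limma, and Lpl was the only one called, for MDR2 loss. Lpl, the lipoprotein lipase, had 1801, 565, 730 and 373 in the GHR-/-MDR2-/-, GHR-/-, MDR2-/- and WT pools, and rose by 1.32 on the log2 scale (SE 0.21, limma adjusted p = 0.041). This call too was lost with no level filter, and the departure of Lpl from additivity was 0.70. None of the 22 was called for GHR loss. Mgll, monoacylglycerol lipase, had 243, 986, 573 and 785 in the same order, with a departure from additivity of -1.57. Aadac, an arylacetamide deacetylase of the same membrane, had 3093, 3821, 4023 and 4989. Apob stayed between 8211 and 8512, and Mttp, which loads lipid onto it, between 1331 and 1942.

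Receptors and factors known to act on liver esterase genes gave no limma call among 16 tested for either loss. Nr1i3, the gene of the drug sensor CAR, had 1493, 2371, 991 and 1329 in the GHR-/-MDR2-/-, GHR-/-, MDR2-/- and WT pools. Nfe2l2, the gene of NRF2, had 2157, 1382, 1883 and 912, and Cebpa, a C/EBP factor, had 1282, 2490, 1707 and 2116. Onecut1 had 218, 248, 436 and 1150 in the same order. Hnf4a stayed between 2833 and 3279. Of 22 tested targets of CAR and the related sensor PXR outside the family, 2 fell with MDR2 loss (Cyp2c29 and Cyp2c54), and 2 rose with GHR loss (Cyp2c37 and Abcb1a). None of these calls held with no level filter. Cyp2b10, a widely used CAR target, had 136 in the GHR-/-MDR2-/-, 1677 in the GHR-/-, 364 in the MDR2-/- and 472 in the WT pool. No NRF2 target among 11 tested was called.

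Summed cholangiocyte, macrophage and leukocyte, and stellate cell markers were higher in both pools without MDR2 than in the pools with it, and summed endothelial markers were not. Of 16 cholangiocyte markers with a row, 15 passed the level in the GHR-/-MDR2-/- against the MDR2-/- pool. Of these 12 stood past 1.5-fold, all higher, against 7.13% of all genes higher. In the MDR2-/- against the WT pool 12 passed the level and 10 stood past 1.5-fold, all higher, against 6.05%. The summed intensity of the 16 was 5796, 1931, 2808 and 1674 in the GHR-/-MDR2-/-, GHR-/-, MDR2-/- and WT pools. The 21 macrophage and leukocyte markers summed to 10956, 4988, 7634 and 3673, and the 18 stellate cell markers to 14396, 9080, 10970 and 7436. Genes of high signal weigh most in such sums, as Lyz2 (5243, 977, 2879 and 847) and Dcn (6466, 4295, 4928 and 3591) did here. The 15 endothelial markers summed to 8320, 10265, 8753 and 8295, and 4 of them were at least 1.5-fold lower in the GHR-/-MDR2-/- than in the GHR-/- pool. In that comparison, macrophage and leukocyte markers past 1.5-fold numbered 11 up and 2 down. The numbers were 9 up and 2 down among stellate cell markers, and 14 up and 1 down (Prom1) among cholangiocyte markers. In the MDR2-/- against the WT pool, which does not use the GHR-/- pool, macrophage and leukocyte markers numbered 7 up and 0 down. Stellate cell markers there numbered 8 up and 0 down. In the GHR-/-MDR2-/- against the MDR2-/- pool, macrophage and leukocyte markers numbered 6 up and 0 down, and stellate cell markers 5 up and 2 down. In neither comparison was an endothelial marker past 1.5-fold. No marker of these lists was at 0, and their part in the levels of the carboxylesterases was not tested. The 19 hepatocyte markers had medians of -0.10 in the MDR2-/- against the WT pool, -0.07 in the GHR-/-MDR2-/- against the MDR2-/- pool and -0.13 in the GHR-/-MDR2-/- against the WT pool. Of these, 2 were at least 1.5-fold lower in the last comparison. With arrays centred on them, 4 of the 9 carboxylesterases were past 1.5-fold with loss of MDR2 alone (Ces3b at -0.55 was not), and 6 in the GHR-/-MDR2-/- against the WT pool. The count for loss of MDR2 alone was also 4 with cyclic loess (Ces3b at -0.558) and with median centring (Ces3b at -0.585).

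The genes with the profile most like those of Ces3b and Ces1f were sought by the Euclidean distance of mean-centred log2 values over the 4 arrays. Nearest to Ces3b were Keg1 (distance 0.94), then Mup3 and Wfdc21 (1.01). Mup3 is a major urinary protein gene, one of a family of near-identical copies, so its signal may be shared. Keg1 had 128, 604, 2591 and 3317 in the GHR-/-MDR2-/-, GHR-/-, MDR2-/- and WT pools. Nearest to Ces1f were Slc30a10, a manganese transporter (distance 0.13), Fabp2, a fatty acid binding protein (0.35), and Mbl2, a mannose-binding lectin (0.48). Slc30a10 had 76, 532, 335 and 696 in the same order, with its lowest value under the level of 100. Fabp2, which is also an intestinal marker, had 92, 871, 530 and 1251, in that order of pools. The other 12 measured pancreas, intestine and adipose markers summed to 724, 653, 800 and 765. Of all 13 measured, Fabp2 among them, only 4 reached 100 in any pool. Most of these markers thus gave low signal, and their sum cannot show whether they share the order of Ces1f. A part of other tissue in these levels was not tested. With 4 arrays many genes can share a profile, and the distance is a description only.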

How the data were processed

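Per the submitters' processing notes, the authors made the deposited intensity values with RMA in Affymetrix Expression Console 1.1 (no probe set genome build is stated). The deposited intensities are whole numbers from 6 to 22355 on a linear scale. Their normalization was kept and log2 values were taken without a pseudocount. Rounding makes differences of low values coarse.

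Of 35556 rows, 21789 had 1 gene symbol in GEO's platform annotation, 1621 several and 12146 none. Of the first, 21698 were matched by gene ID to RefSeq (GRCm38.p6), and no symbol differed. A gene with several rows took the one with the highest mean. Arrays correlated at a Pearson r of 0.970 to 0.988 (log2).

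The additive model was fitted with limma 3.58.1 (lmFit, eBayes; R 4.3.3) over genes whose highest array reached 100, with 4.34 prior degrees of freedom. It was also run on simulated data whose effects were additive, which cannot check it for genes that depart from additivity. No genotype had a replicate, so the residual behind the model's p-values is the departure from additivity, combined by eBayes with a prior over genes. With pooled RNA these p-values measure neither the spread between mice nor that between like arrays. Alternatives were no level filter, a filter at 329 (75th percentile), 2-fold, cyclic loess, the mean of all rows, median centring, hepatocyte marker centring, a pseudocount of 16, and trended robust eBayes.

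The carboxylesterases and gene lists were chosen with earlier results of these data known. Named are the 9 genes, the targeted and sex-linked genes, other carboxylesterases with a row, up to 4 genes of each further list (those with the largest difference), and the 3 genes nearest in profile to the 2 carboxylesterases of widest range. Gusb, Aadac, Apob, Mttp, Nr1i3, Hnf4a, Cyp2c29, Dcn, Prom1, Clec4f, Cd3e, Lrat and Ngfr fall outside this rule and were chosen after their values were seen.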

Additional observations from a re-analysis of the deposited data

Results flagged for a closer look

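Some carboxylesterases differed in opposite directions under the same loss in the 2 backgrounds. These differences rest on 1 array per genotype, use the GHR-/- pool and were not tested. The departures from additivity stand after each gene. With GHR loss, Ces1e was at -1.02 on the log2 scale in MDR2-/- livers and 0.02 in MDR2-intact livers (-1.04), the second below 0 under some scalings. Ces1g was at -0.18 and 0.53 in the same order (-0.71), and Ces1d at -0.13 and 0.29 (-0.42). Ces2a ran the other way, at 0.34 and -0.44 (0.78). Ces2g was at -0.04 and 0.18 (-0.22), within the robust SD of 0.33, and with hepatocyte marker centring both were above 0, at 0.05 and 0.27. With MDR2 loss, Ces1g was at -0.24 in GHR-/- livers and 0.47 in GHR-intact livers, and Ces2g at -0.21 and 0.01, with the same departures of -0.71 and -0.22.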

How the results depend on the processing

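Counts of genes past 1.5-fold in each comparison and for non-additivity stayed within 1.5 times under every alternative run, except that at 2-fold 2 genes remained for MDR2 loss alone, in place of 5. Limma called 0 of the 9 genes for MDR2 loss with no level filter, with the filter at the 75th percentile and with cyclic loess, and 1 (Ces1e) with hepatocyte marker centring, in place of 2; the cause was not tested. Over all genes, calls for MDR2 loss were 322 higher and 82 lower, against 0 and 0 with no level filter, 57 and 12 with the stricter filter, 34 and 5 with cyclic loess, 282 and 50 with median centring, 261 and 31 with hepatocyte marker centring and 429 and 134 with all rows averaged. With all rows averaged, limma called 1 gene (Ces3a) for GHR loss in place of 0 and 3 for MDR2 loss, with Ces2a added at an adjusted p of 0.0432; each of the 9 has a single row, so its own values did not move. Over all genes, calls for GHR loss were 22 higher and 34 lower, against 0 and 0 with no level filter, 11 and 21 with the stricter filter, 7 and 11 with cyclic loess and 13 and 16 with hepatocyte marker centring. Without the GHR-/- pool, GHR loss stood at -5.07 for Ces3b, -3.01 for Ces3a, -2.32 for Ces1f and -1.02 for Ces1e, in place of averages of -3.62, -2.40, -1.35 and -0.50, and it changed sign for Ces1g (-0.18, from 0.17), Ces1d (-0.13, from 0.08), Ces2g (-0.04, from 0.07) and Ces2a (0.34, from -0.05). The all-gene median shifted by -0.12 with median centring in the GHR-/- against the WT pool, and by 0.16 with hepatocyte marker centring in the GHR-/-MDR2-/- against the WT pool. No paired analysis was possible because each genotype has 1 array and the labels carry no replicate numbers. Detection calls were not used here, so background is known only through the intensity.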
